A study of Mus musculus with 42 samples.

Results

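Histone lysine methyltransferases and demethylases were followed through the livers of wildtype (WT) and ChemR23 knockout (KO) mice. The members were taken by name from the table that compares KO lean with WT lean mice: every listed gene whose symbol starts with Kmt, Setd, Kdm, Suv, Ehmt, Ezh, Nsd, Whsc1, Dot1l, Ash1l, Prdm or Smyd, or with Mll and a digit. This gave 58 genes of the 13031 in that table and of 19756 names listed in any of the 6 tables. Under this rule no listed gene was taken or dropped by its value, but the rule itself was chosen with earlier results of these data known. All 58 averaged 5 normalized counts or more, the limit for testing, in every table except that for RvE1 in WT mice, where Prdm11 was not listed and 57 were tested. Nsdhl, an enzyme of cholesterol synthesis, entered by its letters alone, and several members with a SET domain (Setd3, Setd4, Setd5, Setd6, Smyd4, Smyd5 and Mll5) have other or unsettled substrates. The tables use older symbols for some members, so Mll1, Mll2, Mll3 and Mll5 are Kmt2a, Kmt2d, Kmt2c and Kmt2e, Whsc1 and Whsc1l1 are Nsd2 and Nsd3, and Setd8, Suv420h1 and Suv420h2 are Kmt5a, Kmt5b and Kmt5c.

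The mice were males on a C57BL/6J background, 42 in all and 7 in each of 6 groups, with 1 liver library per mouse. KO mice carried a ChemR23 (Cmklr1) deletion made by CRISPR/Cas9 and WT mice were their littermates. From 6 weeks of age they ate for 15 weeks a diet with 10% (WT lean, KO lean) or 60% of its energy from fat (WT and KO obese, with or without RvE1). The RvE1 groups (WT obese+RvE1 and KO obese+RvE1) received 300 ng of resolvin E1, an eicosapentaenoic acid derived lipid that binds ChemR23, by intraperitoneal injection on each of 4 days, and all other groups ethanol and PBS vehicle, before harvest of the fasted mice on day 5. The knockout was whole-body and RNA came from whole liver, so that fewer cells of a type and less RNA per cell cannot be told apart.

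Histone lysine methyltransferases place methyl groups on lysines of histone tails, and demethylases take them off. Methylation of H3K4 marks promoters and enhancers in use, H3K36 and H3K79 methylation accompany transcription through gene bodies, and H3K9, H3K27 and H4K20 methylation mark silent or compacted chromatin. The methyltransferases use S-adenosylmethionine, which liver makes in large amounts, and the Jumonji demethylases need oxygen, iron and 2-oxoglutarate.

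Several members read the DNA of promoters themselves: Mll1, Kdm2a and Kdm2b carry a CXXC zinc finger that binds unmethylated CG dinucleotides. The promoters of members were therefore scanned for CG, with 45 of the 58 matched to the RefSeq promoter sequences on GRCm38.p6, in the 250 bases before the first listed start. The 4 shown belong to Setd2 and Mll1, which were lower in KO lean than WT lean and higher in KO obese than KO lean, to Suv420h2, which was lower in KO obese than KO lean, and to Kdm1b, the 1 member called in WT obese vs WT lean. Each is given 5′ to 3′ on the strand of its gene with every CG in capitals.

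Setd2: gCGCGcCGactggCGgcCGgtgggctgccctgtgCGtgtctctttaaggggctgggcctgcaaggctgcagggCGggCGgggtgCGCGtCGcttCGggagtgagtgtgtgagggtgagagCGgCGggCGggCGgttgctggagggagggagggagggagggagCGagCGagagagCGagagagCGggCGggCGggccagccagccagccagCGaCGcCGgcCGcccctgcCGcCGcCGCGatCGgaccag
Mll1: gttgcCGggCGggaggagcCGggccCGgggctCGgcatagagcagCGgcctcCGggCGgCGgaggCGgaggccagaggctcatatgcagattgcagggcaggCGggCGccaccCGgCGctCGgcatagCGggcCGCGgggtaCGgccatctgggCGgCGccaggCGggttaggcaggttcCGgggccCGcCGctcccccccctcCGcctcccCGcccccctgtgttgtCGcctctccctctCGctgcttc
Suv420h2: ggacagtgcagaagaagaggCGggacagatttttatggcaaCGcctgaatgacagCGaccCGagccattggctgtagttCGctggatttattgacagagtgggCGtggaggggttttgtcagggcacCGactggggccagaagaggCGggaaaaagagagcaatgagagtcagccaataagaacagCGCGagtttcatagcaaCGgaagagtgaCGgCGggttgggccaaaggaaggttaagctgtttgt
Kdm1b: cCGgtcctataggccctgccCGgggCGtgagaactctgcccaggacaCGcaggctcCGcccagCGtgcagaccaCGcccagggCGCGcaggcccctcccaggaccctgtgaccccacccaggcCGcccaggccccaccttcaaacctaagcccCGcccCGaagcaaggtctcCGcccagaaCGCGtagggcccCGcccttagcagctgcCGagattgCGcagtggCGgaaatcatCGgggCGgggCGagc

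They lie at chr9:110532347-110532596 on the plus strand (Setd2), chr9:44881290-44881539 on the minus strand (Mll1), chr7:4739877-4740126 on the plus strand (Suv420h2) and chr13:47043249-47043498 on the plus strand (Kdm1b), and hold 31, 29, 13 and 22 CG. Over the 45 promoters the count ran from 0 (Kdm4c, Setd5) to 48 (Mll3), with a median of 18.0 against 6.0 over 27025 promoters, and 39 of 45 (86.7%) held at least 10, against 38.2% of all. A TATAAA on either strand stood in 2 of the 45 (4.44%; Kdm5d and Smyd1), against 13.0% of all. For some members, among them Setd5, Smyd1 and Prdm1, the RefSeq window lies inside the span of the gene in GENCODE. Their values therefore hold for that window and not for every start of the gene. Of the 20 members that fell in KO lean mice 10 had a promoter here, with a median of 25.5 CG, and Whsc1l1, Kdm6b, Ash1l and Mll5 had none. Among those not called the median was 16.5 over 34, with the ranges overlapping (0 to 48 and 0 to 34). At least 10 CG stood in 9 of the 10 (90.0%) and in 30 of the 34 (88.2%).

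The target of the knockout was low where the labels place it. Cmklr1 had normalized counts between 9.72 and 22.6 in KO lean and between 40.8 and 114 in WT lean mice. Reads on listed genes ran from 15992525 to 43841120 per mouse. One KO lean mouse, 20L, with 40694377 reads, had the lowest value of its group for 32 of the 58 members, and another, 20R, had the highest for 20. In KO obese, 31R was highest for 21 members. In WT obese, 22L was highest for 21 and 27RL was lowest for 28. In KO obese+RvE1, 12-2L was highest for 30. The identifiers begin with a number shared by 1 to 4 mice of a group, which no source explains, and KO lean and WT lean mice share none of these numbers.

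The level of each member was first compared per kilobase of union exon length in WT lean mice, since counts rise with length. Values ran from 0.597 normalized counts per kb (Prdm11) up to the level of Nsdhl, with a median of 58.4 over the 58. Kdm4a, an H3K9 and H3K36 demethylase, was the highest of the histone enzymes at 227 ± 59.7 per kb (SD, n = 7), followed by Prdm2 at 205 ± 37.5 and Kdm5c at 189 ± 17.0, levels that differ by less than 1 SD of Kdm4a. Of the 2 catalytic subunits of the Polycomb H3K27 methyltransferase, Ezh1, the form of resting cells, stood at 40.9 ± 6.19 per kb and Ezh2, the form of dividing cells, at 7.74 ± 1.45. Among the H3K4 enzymes Mll2 (137 ± 28.6 per kb) was above Mll3 (68.8 ± 8.55) and Mll1 (58.5 ± 14.5), and these last 2 differed by less than 1 SD of Mll1. Smyd3, an H3K4 methyltransferase, was low at 3.81 ± 0.761 per kb.

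The first question was which members differ between lean mice with and without the receptor. In KO lean mice 20 members were lower than in WT lean and 1 was higher, at a BH-adjusted p below 0.1 from limma over all genes. The 21 called are 36.2% of the members, where 16.3% of all 13031 genes were called. Lower calls took 34.5% of members against a background of 8.3%, and higher calls 1.72% against 8.0%. A fold change over 1.5 as well was met by 12 members (20.7%; background 6.65%), all of them lower. The median Log2 FC of the members was -0.26, against 0.00 over all genes (49 of 58 members below 0, against 6519 of 13031 genes). Lower members were mainly enzymes of H3K4 (6 of 9 methyltransferases lower) and H3K36 methylation (5 of 6), while 0 of 5 H3K9 demethylases and 0 of 2 H3K27 methyltransferases passed the test. Of these writers Mll3 (H3K4), Nsd1 and Whsc1 (H3K36) did not pass after the correction for exon length and GC content described below. The 21 calls did not hold when the number that opens each identifier entered limma as a random block: 0 members and 3 genes in all were then called (adjusted p = 0.138 for Whsc1l1 and 0.139 for Kdm6b). Without 1 mouse the count fell to 5 (26R of WT lean), 6 (21L of WT lean), 7 (9L of KO lean), 11 (20L) or 12 (20-2L), and Whsc1l1, Kdm6b, Setd2, Ash1l and Mll5 passed whichever mouse of the 14 was left out. The share of all genes in these fits is not given, so a loss particular to members cannot be read from them.

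**Figure D1:**
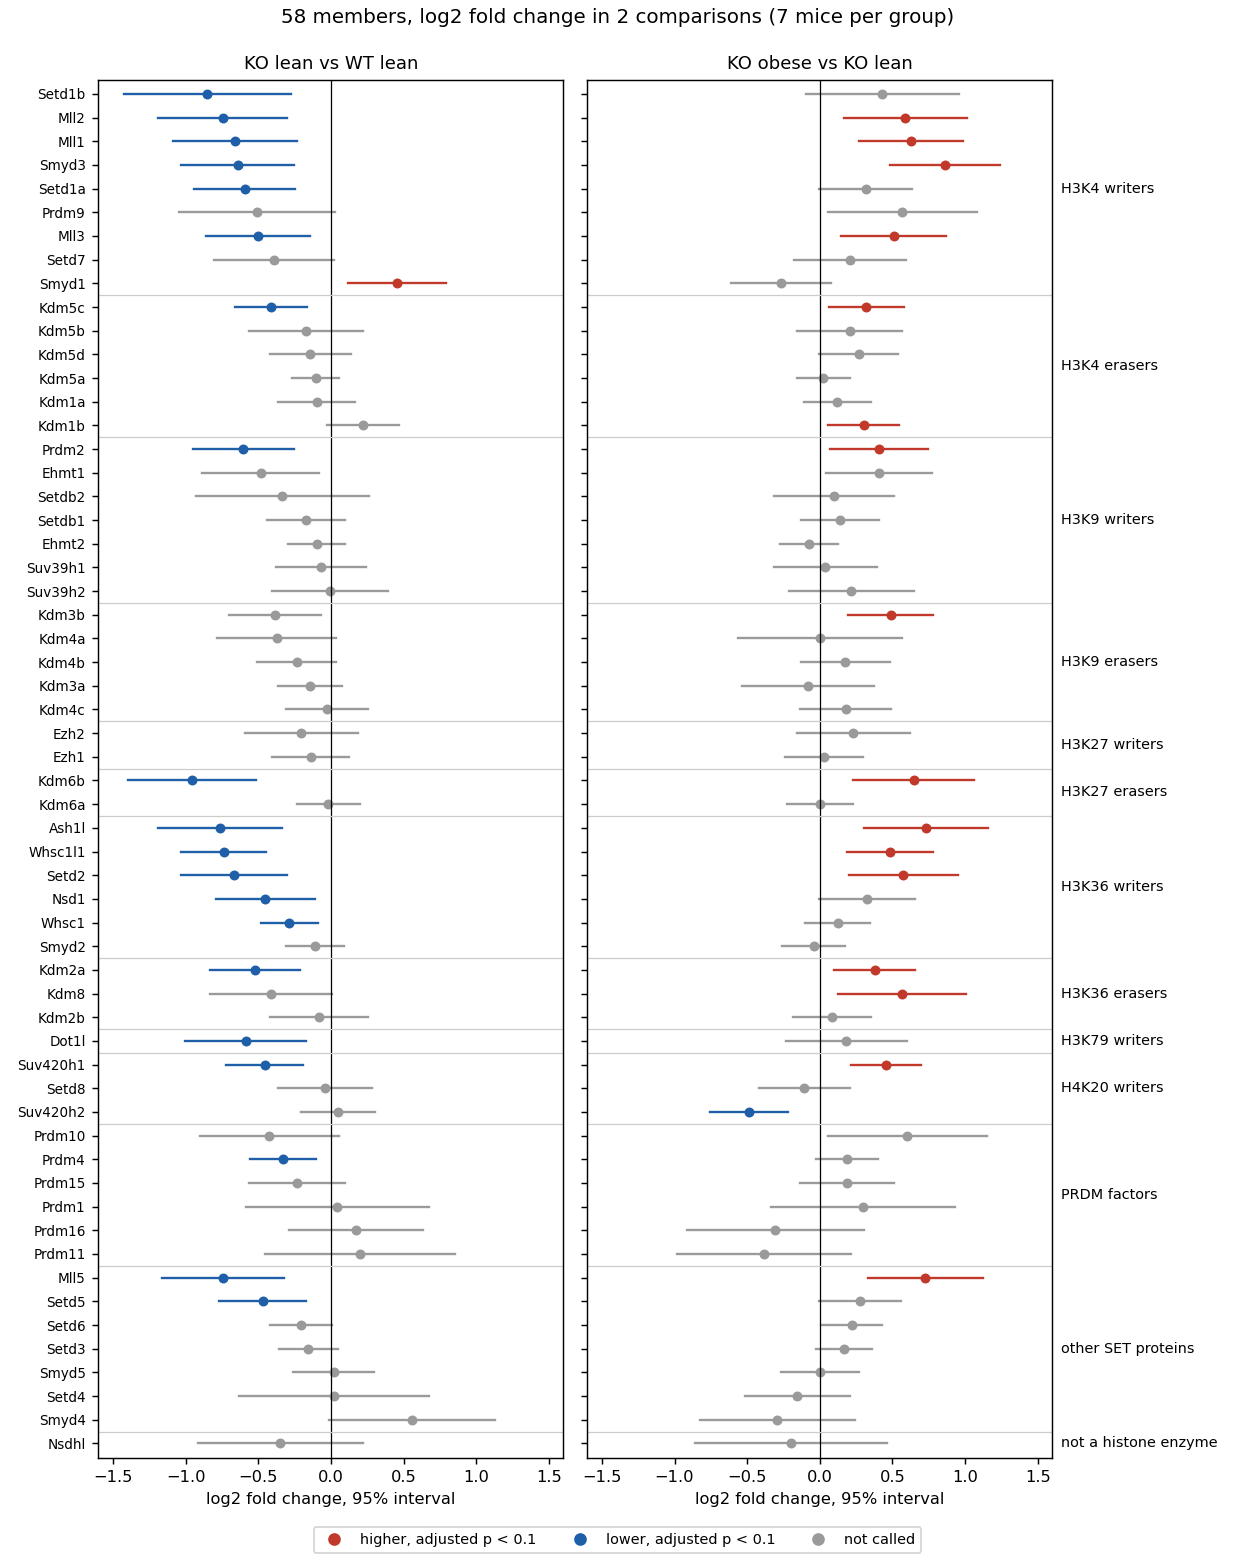
Log2 fold change (x axis) of each of the 58 members (rows, grouped by the mark they write or erase) in KO lean vs WT lean (left) and KO obese vs KO lean (right), with 7 mice per group; points are limma estimates and lines their 95% intervals. On the left 20 members are lower and 1 is higher, and on the right 16 are higher and 1 is lower; both panels use the same KO lean mice.

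The H3K4 methyltransferases of the MLL and SET1 family work in large complexes at promoters and enhancers. Mll2, a chief writer of H3K4 monomethylation at enhancers, had normalized counts of 2116, 2840 and 3649 (lowest, median and highest of 7 mice) in WT lean and of 850, 1553 and 2851 in KO lean mice. In KO lean 5 of 7 mice lay below all WT lean mice, and 14-2L and 20R fell inside the WT lean range (Log2 FC -0.75 ± 0.21 SE, adjusted p = 0.0483). Mll3, its close relative, ran over 1206, 1381 and 1673 in WT lean and 579, 972 and 1644 in KO lean mice (Log2 FC -0.50 ± 0.17, adjusted p = 0.0747), with 6 of 7 KO lean mice below the WT lean range. Mll1, which maintains Hox gene expression, took 646, 937 and 1282 in WT lean and 323, 632 and 867 in KO lean (Log2 FC -0.66 ± 0.20, adjusted p = 0.0576). Here 4 of 7 KO lean mice were below the WT lean range.

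Setd1a, catalytic subunit of a SET1 complex that writes H3K4 trimethylation at promoters, had 519, 622 and 873 normalized counts in WT lean and 262, 451 and 574 in KO lean mice (Log2 FC -0.59 ± 0.16, adjusted p = 0.0471). Its paralog Setd1b ran over 823, 1116 and 1636 against 255, 694 and 1149 (Log2 FC -0.85 ± 0.27, adjusted p = 0.0654). For both, 5 of 7 KO lean mice were below every WT lean mouse. The SMYD enzymes did not move alike. Smyd3 had 28.1, 32.4 and 49.3 in WT lean and 15.8, 23.0 and 31.7 in KO lean, with 6 of 7 KO lean mice below the WT lean range (Log2 FC -0.64 ± 0.18, adjusted p = 0.0511). Smyd1, known from striated muscle, was the 1 member that was higher, at 103, 134 and 192 in WT lean and 149, 203 and 230 in KO lean (Log2 FC 0.46 ± 0.16, adjusted p = 0.0817), and 4 of 7 KO lean mice exceeded all WT lean mice.

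Among H3K4 demethylases 1 of 6 passed the test. Kdm5c, an X-linked eraser of H3K4 di- and trimethylation, ran over 1210, 1354 and 1555 normalized counts in WT lean and 814, 944 and 1349 in KO lean, with all KO lean mice but 20R below the WT lean range (Log2 FC -0.41 ± 0.12, adjusted p = 0.0492). Its relatives Kdm5a (Log2 FC -0.10 ± 0.08, adjusted p = 0.397) and Kdm5b (Log2 FC -0.17 ± 0.19, adjusted p = 0.588) did not pass, nor did the flavin-dependent Kdm1a (Log2 FC -0.10 ± 0.13, adjusted p = 0.654).

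For H3K36, the enzymes on transcribed gene bodies, Whsc1l1 had the smallest p of all members. This methyltransferase of the NSD family, a gene at chr8:25601601-25719667 on GRCm38, had 1467, 2326 and 2666 normalized counts in WT lean and 1109, 1248 and 1796 in KO lean (Log2 FC -0.74 ± 0.14, adjusted p = 0.0302). The groups overlapped only through 20R, the highest KO lean mouse, since the other 6 lay below all WT lean mice. Setd2, which writes H3K36 trimethylation behind RNA polymerase, ran over 880, 1119 and 1502 against 446, 768 and 1049 (Log2 FC -0.67 ± 0.17, adjusted p = 0.0430). Ash1l, a trithorax-group methyltransferase, ran over 1039, 1412 and 1823 against 463, 811 and 1397 (Log2 FC -0.77 ± 0.20, adjusted p = 0.0435), and for both genes 5 of 7 KO lean mice lay below the WT lean range. Nsd1 (Log2 FC -0.45 ± 0.16, adjusted p = 0.0889) and Whsc1 (Log2 FC -0.29 ± 0.09, adjusted p = 0.069) fell by less. Of the erasers, Kdm2a fell from a median of 1455 (1183 to 1886) to 971 (745 to 1488; Log2 FC -0.52 ± 0.15, adjusted p = 0.0487), while its paralog Kdm2b had a Log2 FC of -0.08 ± 0.16 (adjusted p = 0.773).

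The H3K27 demethylases separated. Kdm6b, a Jumonji enzyme known to be induced in macrophages by inflammatory signals, had 824, 856 and 1445 normalized counts in WT lean and 289, 461 and 924 in KO lean mice, the largest fall among the members (Log2 FC -0.96 ± 0.21, adjusted p = 0.0340). Again 6 of 7 KO lean mice were below the WT lean range and 20R was within it. Kdm6a, its X-linked relative, ran over 312, 368 and 411 against 283, 363 and 397 (Log2 FC -0.02 ± 0.10, 95% interval -0.24 to 0.20, adjusted p = 0.929). The writers Ezh1 (Log2 FC -0.14 ± 0.13, adjusted p = 0.499) and Ezh2 (Log2 FC -0.20 ± 0.18, adjusted p = 0.505) did not pass the test.

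Among H3K9 enzymes, Prdm2 fell from 1165, 1549 and 1909 normalized counts in WT lean to 725, 932 and 1632 in KO lean (Log2 FC -0.60 ± 0.16, adjusted p = 0.0461). The partners Ehmt1 (Log2 FC -0.48 ± 0.19, adjusted p = 0.118) and Ehmt2 (Log2 FC -0.10 ± 0.09, adjusted p = 0.525), which dimethylate H3K9 as a dimer, did not pass. Setdb1, Suv39h1 and Suv39h2, writers of H3K9 trimethylation, had Log2 FC of -0.17 ± 0.13, -0.07 ± 0.15 and -0.01 ± 0.19. The erasers Kdm3a, Kdm4a and Kdm4c had -0.14 ± 0.10, -0.37 ± 0.19 and -0.03 ± 0.13, with adjusted p between 0.221 and 0.924.

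Dot1l, the H3K79 methyltransferase, fell from 495, 678 and 924 to 262, 543 and 620 normalized counts (Log2 FC -0.59 ± 0.20, adjusted p = 0.0731), with 3 of 7 KO lean mice below the WT lean range. Of the H4K20 methyltransferases, Suv420h1 ran over 695, 859 and 1068 in WT lean and 475, 625 and 788 in KO lean, 5 of 7 mice below (Log2 FC -0.45 ± 0.13, adjusted p = 0.0471). Its paralog Suv420h2 (Log2 FC 0.05 ± 0.12, adjusted p = 0.823) and the monomethyltransferase Setd8 (Log2 FC -0.04 ± 0.15, adjusted p = 0.881) did not pass. Mll5, a SET protein that binds H3K4 trimethylation, ran over 901, 1123 and 1615 against 350, 769 and 1055 (Log2 FC -0.74 ± 0.20, adjusted p = 0.0451), and 6 of 7 KO lean mice were below the WT lean range. The remaining lower members were Setd5 (Log2 FC -0.47 ± 0.14) and Prdm4 (Log2 FC -0.33 ± 0.11).

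No member had groups that did not overlap in any table (0 of 58 in each, or of 57). Of all genes 0.744% did not overlap in KO lean vs WT lean, 2.0% in KO obese vs KO lean, 1.29% in WT obese vs WT lean and between 0.0202% and 0.107% in the 3 tables of obese mice, so a count of 0 is near the background. The plot of 6 members by mouse shows the spread that these tests rest on.

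**Figure D2:**
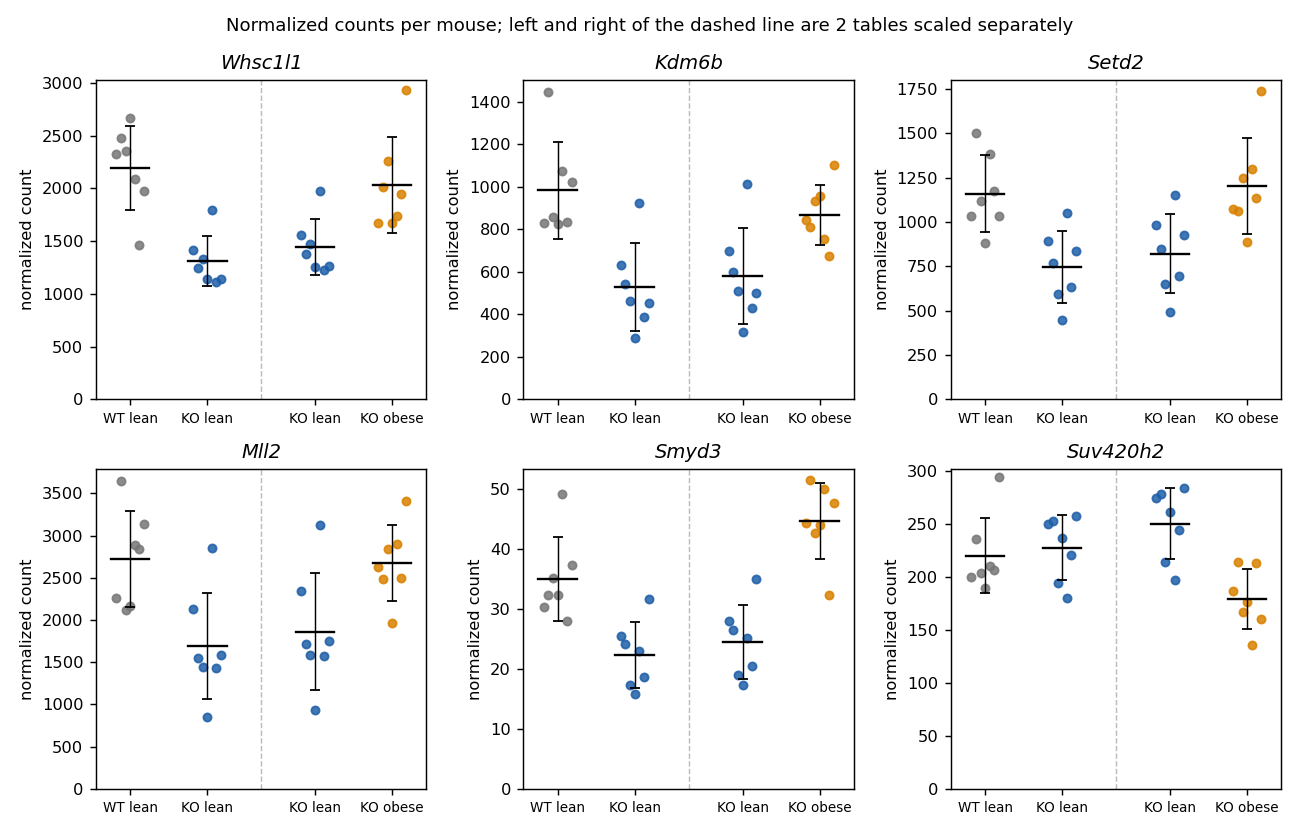
Normalized counts (y axis, from 0) of 6 members in single mice (points, 7 per group) with mean and SD; left of the dashed line the table of KO lean vs WT lean, right of it the table of KO obese vs KO lean, each scaled on its own. In Whsc1l1, Kdm6b and Smyd3, 6 of 7 KO lean mice lie below all WT lean mice, and Suv420h2 is lower in KO obese than KO lean.

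These values move with other measures of the same libraries. Members are long, with a median union exon length of 7430 bases against 4370 for all genes tested, and in this comparison genes of 7518 bases and over had a median Log2 FC of -0.17 and those up to 2414 bases one of 0.14. Among all genes of 7518 bases and over 19.3% were called lower, against 15 of the 28 members of that length (median Log2 FC -0.45). After each library was corrected for exon length and GC content, 14 members were lower (24.1%, where 6.73% of all genes were) and 1 was higher (1.72%, all genes 6.45%), of which 14 were among the original 21, and the median Log2 FC was -0.16. Whsc1l1, Kdm6b, Setd2, Ash1l and Mll5 remained lower (Log2 FC -0.46 to -0.79), and Suv420h1, Mll3, Nsd1, Whsc1, Setd5, Dot1l and Prdm4 did not pass.

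**Figure D3:**
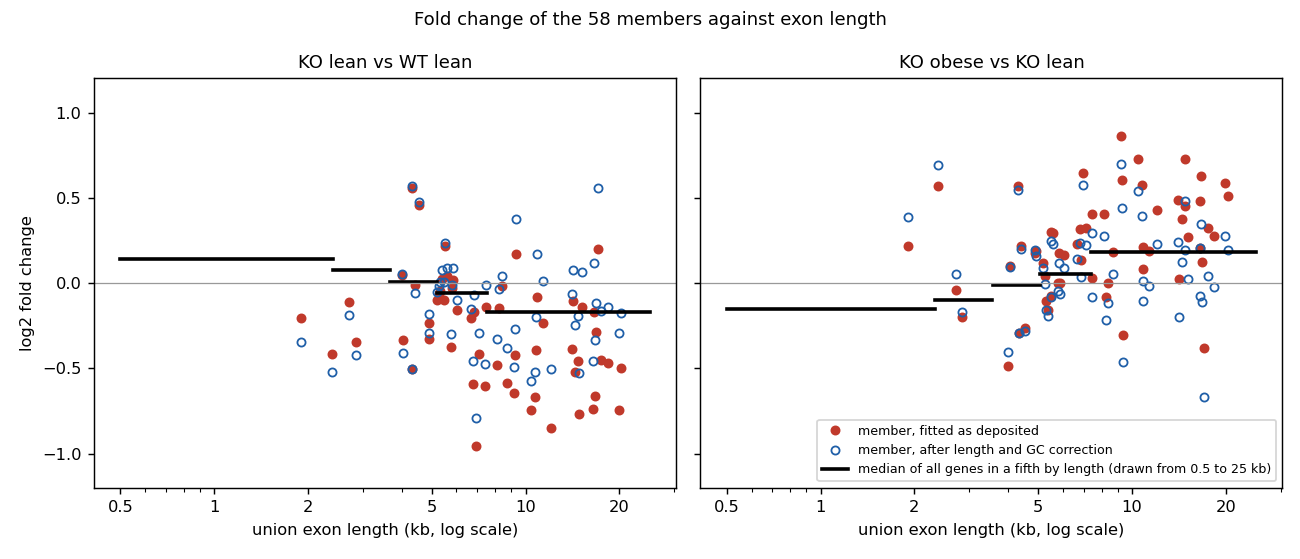
Log2 fold change (y axis) of the 58 members against union exon length (x axis, log scale) in KO lean vs WT lean (left) and KO obese vs KO lean (right), as fitted (filled) and after length and GC correction (open); black lines are medians of all genes in 5 bins of length with about equal numbers of genes. All-gene medians go from 0.14 to -0.17 on the left and from -0.15 to 0.18 on the right.

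All 8 Kupffer cell markers were higher in KO lean than WT lean mice, with summed normalized counts of 8842 to 19483 against 3711 to 8130, so that the sums did not overlap, and 0 of 8 were called with the random block (smallest adjusted p = 0.111). Of 4 listed lymphocyte markers 2 were higher as well, and 1 of 7 sinusoidal endothelial markers was higher. Stellate markers had 1 of 7 lower and cholangiocyte markers 1 of 5 lower. None of these was called with the block (smallest adjusted p = 0.161, 0.146, 0.189 and 0.185 in that order). Of the hepatocyte markers 0 of 6 passed, their sum being 1107744 to 1453739 against 1165265 to 1602553. The part of cell content and of exon length in the lower member values was not tested.

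The second question was how the high fat diet changed these genes within each genotype. In KO mice 16 members were higher in obese than lean and 1 was lower. The 17 are 29.3% of members, close to the 24.1% of all 14213 genes called, but higher calls took 27.6% against a background of 12.0% and lower calls 1.72% against 12.1%. With a fold change over 1.5 as well, 6 members were called (10.3%, background 10.4%). The members' median Log2 FC was 0.21, against 0.00 for all genes. Since the same 7 KO lean mice serve here and above, the pair of comparisons share their values and their opposite directions are not independent.

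Smyd3 had the smallest p. It took 17.4, 25.2 and 35.0 normalized counts in KO lean and 32.3, 44.4 and 51.6 in KO obese (Log2 FC 0.86 ± 0.18, adjusted p = 0.00787), and 6 of 7 KO obese mice were above all KO lean mice. Suv420h1 rose from 523, 689 and 865 to 799, 911 and 1052 (Log2 FC 0.45 ± 0.11, adjusted p = 0.0185), and its paralog Suv420h2 fell from 197, 261 and 284 to 136, 176 and 214 (Log2 FC -0.49 ± 0.13, adjusted p = 0.0208). Both enzymes turn H4K20 monomethylation into higher states. For Suv420h1, 6 of 7 KO obese mice were above the KO lean range, and for Suv420h2, 5 of 7 were below it.

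Of the MLL family, Mll1 ran over 356, 697 and 952 in KO lean and 850, 1029 and 1248 in KO obese, 6 of 7 above the KO lean range (Log2 FC 0.63 ± 0.17, adjusted p = 0.0241). Mll5 rose from 386, 847 and 1158 to 1034, 1233 and 1671 (Log2 FC 0.72 ± 0.19, adjusted p = 0.0207), and Ash1l from 511, 894 and 1534 to 1037, 1510 and 1986 (Log2 FC 0.73 ± 0.20, adjusted p = 0.0270). The KO lean and KO obese values of Ash1l overlapped in 4 of 7 KO obese mice. Other members that rose were Mll2 and Mll3 (Log2 FC 0.59 and 0.51), Setd2 (0.57), Whsc1l1 (0.48), Kdm6b (0.65), Kdm3b (0.49), Kdm2a (0.38), Kdm8 (0.57), Kdm5c (0.32), Kdm1b (0.30) and Prdm2 (0.41). Dot1l (0.18, adjusted p = 0.561), Setd1a (0.31, adjusted p = 0.167), Setd1b (0.43, adjusted p = 0.247), Nsd1 (0.33, adjusted p = 0.161) and Whsc1 (0.12, adjusted p = 0.462) did not pass. Log2 FC of Ezh1, Ezh2, Setdb1, Ehmt2, Suv39h1 and Suv39h2, writers of H3K9 or H3K27 methylation, lay between -0.07 and 0.23, and none passed, while the H3K9 methyltransferase Prdm2 did (0.41). Ehmt1, another H3K9 writer, did not pass either. It was called with equal library totals and without the KO lean mouse 14-2L or the KO obese mouse 23L.

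Here too, length and cell markers moved. All genes of 7375 bases and over had a median Log2 FC of 0.18 and 23.5% of them were called higher, against 12 of the 30 members of that length. After length and GC correction 9 members were higher (15.5%, where 10.4% of all genes were) and 1 was lower (1.72%, all genes 11.4%), with Smyd3, Mll1, Mll5, Ash1l, Kdm6b and Suv420h2 among them. Suv420h1, Whsc1l1, Mll3, Kdm3b, Kdm2a, Kdm5c, Kdm1b and Prdm2 did not pass. Of 8 Kupffer cell markers 7 were lower in KO obese than KO lean mice, with sums of 5323 to 7293 against 9745 to 21486, and the same number was called with the random block. Lymphocyte markers had 5 of 7 lower, with sums of 31.8 to 74.6 against 78.3 to 147, which did not overlap either. Sinusoidal endothelial markers had 3 of 7 lower, stellate and erythroid markers 1 each lower, and hepatocyte and adipocyte markers 1 each higher. With the random block 1 lymphocyte marker, Ms4a1, stayed lower (adjusted p = 0.0528). No endothelial, stellate, erythroid, hepatocyte or adipocyte marker was called with it. The part of cell content and of exon length in the member values was not tested. When mice of 1 identifier number were treated as a random block 3 members were called, Smyd3 (adjusted p = 0.0501), Suv420h2 (0.0843) and Suv420h1 (0.0917). They are 5.17% of members, where 7.44% of all genes were called with the block. Higher calls took 3.45% of members against 3.52% of all genes, so the larger share of higher calls was not seen there. Without the KO lean mouse 9L 10 members were called, and without the KO obese mouse 31R 11 were, counts that also stand without the share of all genes.

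In WT mice 1 member passed, 1.72% of members against 6.27% of all genes. Kdm1b, which demethylates H3K4 with flavin and is known for its part in imprinting in oocytes, had 473, 598 and 780 normalized counts in WT lean and 590, 865 and 1265 in WT obese (Log2 FC 0.55 ± 0.14, adjusted p = 0.0460). Of the WT obese mice 6 of 7 were above the WT lean range, the other being 22L. In KO mice, which are other animals, Kdm1b ran over 635, 785 and 1009 in lean and 794, 1019 and 1188 in obese mice (Log2 FC 0.30 ± 0.12, adjusted p = 0.0846), and 4 of 7 KO obese mice were above the KO lean range. That call held in 13 of 29 alternatives and in 4 of the 14 with 1 mouse left out, and was lost with the length and GC correction (adjusted p = 0.114) and the block (0.262). The difference between its diet effects had a 95% interval of -0.62 to 0.13 (adjusted p = 0.509). The call in WT mice was lost with the random block (adjusted p = 0.191).

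The next members by p in WT mice were Kdm4a, Kdm6b, Setd7, Kdm4c and Dot1l. Kdm4a took 960, 1106 and 1826 in WT lean and 534, 630 and 1753 in WT obese (Log2 FC -0.68 ± 0.26, adjusted p = 0.161), and Kdm6b 791, 824 and 1393 against 435, 699 and 1123 (Log2 FC -0.44 ± 0.19, adjusted p = 0.218). In both, and in Setd7 (Log2 FC -0.56 ± 0.24) and Dot1l (Log2 FC -0.48 ± 0.23), the highest WT obese value was that of 22L. Without this mouse 6 members passed (10.3%, where 9.18% of all genes did), 1 higher (all genes 5.02%) and 5 lower (8.62%, all genes 4.17%). Kdm4c had a Log2 FC of 0.26 ± 0.12 (adjusted p = 0.264). The median over members was -0.05, against 0.00 over all genes.

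Whether the diet effect differed by genotype was tested as an interaction, the KO Log2 FC minus the WT one. By limma 0 of 58 members passed (background 0.00718%, 1 of 13924 genes), while 23 members (39.7%) had an unadjusted p below 0.05, against 18.3% of all genes. Kdm6b came first, with a difference of 1.09 ± 0.28 on the log2 scale (adjusted p = 0.141), then Whsc1l1 (0.74 ± 0.21), Setd2 (0.80 ± 0.25), Suv420h1 (0.51 ± 0.16), Ash1l (0.86 ± 0.28) and Kdm2a (0.56 ± 0.18), all with the same adjusted p. On the recovered reads edgeR called 0 members and DESeq2 called 9, of which 8 had the higher change in KO mice, where it called 6.65% of all genes. Without the KO lean mouse 20R 20 members and 13.3% of all genes passed in limma, and without the WT obese mouse 22L 14 members and 6.92% of all genes did.

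Among obese mice, the genotypes were compared next. In KO obese against WT obese 0 members passed with limma, edgeR or DESeq2 (background 0.0141% in limma, 2 of 14162 genes, with 2 in edgeR and 3 in DESeq2), and 1 had an unadjusted p below 0.05. That was Suv420h2, with 188, 227 and 254 normalized counts in WT obese and 130, 169 and 207 in KO obese mice (Log2 FC -0.39 ± 0.11, adjusted p = 1.0), 5 of 7 below the WT obese range. The following members, Setd7, Prdm1, Suv39h1, Ehmt2 and Whsc1, had Log2 FC of 0.38 ± 0.23, 0.41 ± 0.31, -0.18 ± 0.15, -0.10 ± 0.09 and -0.11 ± 0.10. For Kdm6b, with the largest fall in KO lean mice, the 95% interval in obese mice was -0.24 to 0.50, and for Whsc1l1 it was -0.33 to 0.33. The members' median Log2 FC was -0.01, against 0.00 for all genes.

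**Figure D4:**
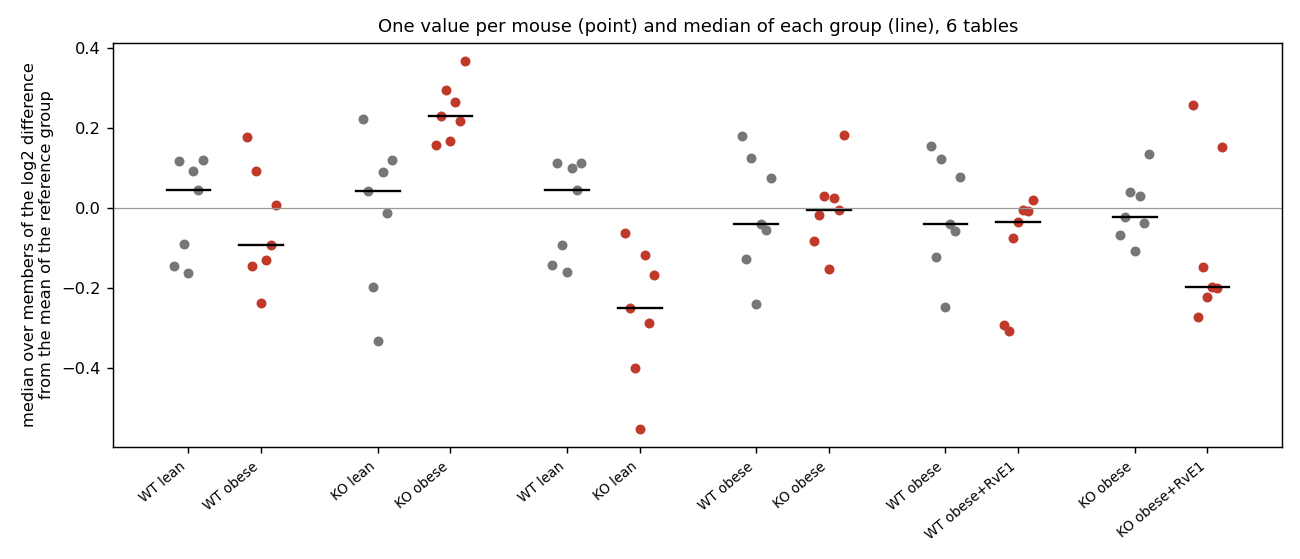
For each mouse, the median over the members of the log2 difference from the mean of the reference group in its table (y axis), for the 6 tables; points are mice, lines group medians, and each table is scaled on its own. KO lean mice lie between -0.55 and -0.06, partly overlapping a WT lean range of -0.16 to 0.11. KO obese mice lie between 0.16 and 0.37, partly overlapping a KO lean range of -0.33 to 0.22.

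RvE1 was tested against vehicle in obese mice of each genotype. With limma, edgeR and DESeq2, 0 of 57 members passed in WT mice and 0 of 58 in KO mice (background in limma 0.0% in both). Over all genes edgeR called 1 and 0 and DESeq2 25 (0.191%) and 17 (0.12%). In limma 2 and 4 members had an unadjusted p below 0.05, that is 3.51% and 6.9%, against 6.08% and 8.3% of all genes. Whsc1l1 had the smallest p in each. In WT mice it ran over 1516, 2004 and 2720 with vehicle and 1408, 1645 and 1814 with RvE1 (Log2 FC -0.33 ± 0.13, adjusted p = 0.772), 1 of 7 treated mice below the vehicle range. In KO mice it ran over 1686, 1960 and 2962 with vehicle and 1161, 1497 and 1916 with RvE1 (Log2 FC -0.40 ± 0.14, adjusted p = 0.557), with 5 of 7 below.

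The other named members for RvE1 in WT mice were Suv420h2 (Log2 FC -0.25 ± 0.12), Kdm4c (-0.16 ± 0.08), Kdm5a (-0.17 ± 0.09), Prdm15 (-0.31 ± 0.16) and Mll3 (-0.18 ± 0.10). In KO mice they were Smyd4 (0.47 ± 0.17), Kdm6a (-0.26 ± 0.11), Ehmt2 (0.25 ± 0.11), Suv420h1 (-0.24 ± 0.12) and Prdm4 (-0.21 ± 0.10), and the vehicle and RvE1 values overlapped for each of them. The members' median Log2 FC with RvE1 was -0.11 in WT and -0.12 in KO mice, against 0.00 and -0.01 for all genes. After length and GC correction the medians were -0.07 in WT and -0.04 in KO mice, against 0.01 for all genes in both. For the interaction of RvE1 with genotype 0 of 57 members passed in limma, edgeR and DESeq2 (background 0.0%), and 1 had an unadjusted p below 0.05, Suv420h2, at a difference of 0.50 ± 0.19 on the log2 scale (adjusted p = 1.0). The next members, Smyd4, Ehmt2, Kdm5c, Kdm6a and Kdm4c, had differences between -0.29 and 0.54, each with an adjusted p of 1.0.

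Genes that work beside the members were taken from lists. In KO lean vs WT lean, where 8.3% of all genes were called lower and 8.0% higher, every call in the lists that follow was lost with the random block (0 genes of any list, smallest adjusted p = 0.139). The methyltransferases and demethylases of other names had 4 of 12 lower and 0 higher, among them the Kmt2b gene listed as Wbp7 (Log2 FC -0.63 ± 0.17) and Jhdm1d, now Kdm7a (-0.44 ± 0.11). Of 13 partners of the H3K4 methyltransferases 2 were higher, Dpy30 (0.34 ± 0.11) and Wdr5 (0.35 ± 0.13), and 2 were lower, Hcfc1 (-0.60 ± 0.20) and Rbbp5 (-0.35 ± 0.12). Of 9 partners of Ezh1 and Ezh2 1 was lower, Aebp2 (-0.33 ± 0.10). These partners passed in both directions, beside 6 of 9 H3K4 methyltransferases lower and 1 higher.

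Proteins that read or balance these marks were also counted in KO lean vs WT lean, against the same background and with 0 called in each list under the block. Readers of methylated lysine had 7 of 17 lower and 0 higher (smallest adjusted p = 0.139 with the block), with Cbx1 (Log2 FC -0.41 ± 0.10) and Cbx3 (-0.52 ± 0.12), the heterochromatin proteins that bind methylated H3K9, among the smallest p. Histone acetyltransferases had 7 of 12 lower, such as Ncoa1 (-0.66 ± 0.19) and Kat6b (-0.79 ± 0.23), and 1 higher, Hat1 (0.40 ± 0.15), none of them called under the block (smallest adjusted p = 0.158). Histone deacetylases and sirtuins had 4 of 18 higher, among them Sirt3 (0.63 ± 0.20), and 0 lower. Arginine methyltransferases had 1 of 9 lower, Carm1 (-0.36 ± 0.12). The median Log2 FC was -0.39 for acetyltransferases and 0.14 for deacetylases and sirtuins.

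Lysine catabolism shares a pathway map with the methyltransferases, since trimethyllysine feeds carnitine synthesis. Its 25 tested enzymes had 3 lower, among them Acat2 (Log2 FC -0.65 ± 0.18) and Aldh2 (-0.52 ± 0.16), and 1 higher, Bbox1, the last enzyme of carnitine synthesis (0.79 ± 0.21), in KO lean vs WT lean, with a median of 0.10. With the block 0 of the 25 were called. The 3 tested nuclear-retained RNAs had Log2 FC between -0.45 and -0.15 and none passed. In KO obese vs KO lean, where 12.0% of all genes were called higher and 12.1% lower, 6 of 12 acetyltransferases, 6 of 12 methyltransferases and demethylases of other names and 4 of 13 H3K4 partners were higher, Kat6b leading (0.92 ± 0.23). The H3K4 partners also had 1 lower, Pagr1a (-0.47 ± 0.19), and a median Log2 FC of 0.03. Partners of Ezh1 and Ezh2 had 1 of 9 higher, Aebp2, and arginine methyltransferases 1 of 9 higher. In that comparison Malat1, a nuclear-retained RNA, was higher (0.78 ± 0.19, adjusted p = 0.0147), deacetylases and sirtuins had 2 of 18 higher and 3 lower, readers had 3 of 17 higher and 2 lower, and the lysine catabolism enzymes 4 of 25 higher and 2 lower, with Ehhadh at -1.81 ± 0.38. With the block, where 7.44% of all genes were called, Kat6b was the 1 acetyltransferase called and Jhdm1d the 1 enzyme of other names. Paxip1, named after its value was seen, was the 1 H3K4 partner, and Malat1 and Ehhadh stayed called. Aebp2 (0.51 ± 0.12) and the lysine catabolism enzyme Aldh7a1 (0.52 ± 0.13) also stayed higher with the block. The 1 reader called with it, Cbx7, was lower (-0.61 ± 0.13). In WT obese vs WT lean 0 genes of these lists passed except 3 of 25 lysine catabolism enzymes (2 higher, 1 lower), and 0 passed in the 3 comparisons among obese mice.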

How the data were processed

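The authors made TruSeq stranded total RNA libraries, aligned read pairs to mm10 with Bowtie2, counted with featureCounts only pairs with both ends mapped, and normalized each comparison with DESeq2. Tool versions, gene annotation and counting strand were not given in the sources used here. The deposited signal values are counts divided by a library's size factor, set anew in each of 6 tables of 14 libraries, so groups were compared within a table only. The tables also hold the authors' own fold changes and p-values, which were not used.

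Whole reads were recovered from the deposited values (100% whole within 0.1 reads; a mouse found in several tables had 0 differing reads of 778771 compared). Depth per mouse is given with the results; few reads limit the precision of Prdm1, Prdm11 and Prdm16. Within groups 126 pairs of libraries differed by a chi-square per gene of at least 21.9, so none was counted as a repeat. Mice are separate animals.

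Each comparison was tested with limma (3.58.1, in R 4.3.3, with a mean-variance trend), two-sided, on log2(normalized count + 1) of genes averaging 5 normalized counts or more, BH-adjusted over all genes tested and called at an adjusted p below 0.1, the study's limit, regardless of fold change. Log2 FC are on this scale, which understates changes of low genes, with SE. Interactions were formed from each table's own difference. The fits were tested on simulated data with 200 changed genes.

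Alternatives were TMM scaling, equal library totals, a loess correction for exon length and GC content (span 0.3), pseudocounts of 0.5 and 4, no low filter, the identifier number as a random block, other thresholds, edgeR (4.0.16) and DESeq2 (1.42.0) on recovered reads, and leaving out each mouse. Leaving out all mice of 1 identifier number was chosen after seeing the data. The identifier numbers are no stated litter or cage, and the estimated correlation within a number was 0.217 for KO lean vs WT lean and 0.237 for KO obese vs KO lean. Exon lengths, positions and current symbols came from GENCODE and RefSeq on GRCm38, the same build as mm10, matched by symbol (98.6% of 19756 names; all 58 members).

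Full values were given for the 12 members with the smallest adjusted p in KO lean vs WT lean, the 6 with the smallest in every other test, and a set of chief enzymes of each mark, and for lists the 2 genes with the smallest adjusted p in each direction. Members called outside this rule were named after their values were seen. Members, lists and rule were chosen with earlier results of these data known, and Kmt2b, Kdm7a and the nuclear-retained RNAs were added to the lists after the names in the tables had been read.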

Additional observations from a re-analysis of the deposited data

Results flagged for a closer look

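One value among the called members stood far from the others of its group by Dixon's ratio. Smyd3 in KO obese mouse 31N was 32.3 normalized counts, where the other 6 KO obese mice ran from 42.8 to 51.6, a ratio of gap to range of 0.598 on the log2 scale above the critical value for 7 mice. In all 78 groups of 7 were looked at, and chance flags about 1 in 20. Smyd3 was called higher in KO obese than KO lean with each mouse left out in turn.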

How the results depend on the processing

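No called member changed direction under any alternative. In KO lean vs WT lean, 436 values of called members under an alternative stayed past the threshold and 194 did not, and in KO obese vs KO lean 383 did and 110 did not. Scaling by TMM, pseudocounts of 0.5 and 4 and no low filter kept the same 21 and 17 members. Equal library totals moved the median of all genes to -0.12 in KO lean vs WT lean (22 members called, 0 higher) and to 0.14 in KO obese vs KO lean (24 called, 0 lower), so that Smyd1 and Suv420h2 were not called there. Counts of called members were, in KO lean vs WT lean (21), 11 at an adjusted p below 0.05, 12 with a fold change over 1.5 as well and 0 with the identifier number as a replicate block; in KO obese vs KO lean (17), 10, 6 and 3, and 10 with the length and GC correction; and in WT obese vs WT lean (1), 0 with the block and 0 with the fold change limit. The block changed no other count. Diet by genotype gave 9 with DESeq2 against 0.

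With 1 mouse left out, counts ran from 5 to 26 in KO lean vs WT lean, 10 to 22 in KO obese vs KO lean, 1 to 6 in WT obese vs WT lean and 0 to 20 in diet by genotype, and stayed at 0 in the other 4 tests. In KO lean vs WT lean the mice that moved it by over 1.5 times were 26R (5) and 21L (6) of WT lean and 9L (7), 20L (11) and 20-2L (12) of KO lean; in KO obese vs KO lean 9L of KO lean (10) and 31R of KO obese (11); in WT obese vs WT lean 22L (6); in diet by genotype 20R (20) and 22L (14). Of these fits, the share of all genes is given above for those without 22L or 20R only. In an alternative chosen after seeing the data, all mice of 1 identifier number were left out. In KO lean vs WT lean 0 members were called without number 9, 21 or 26, when 15, 32 and 8 genes were called in all. In KO obese vs KO lean 7, 8 and 1 were called without number 9, 10 or 31, with no share of all genes given. The cause of these changes was not tested. Low reads limit Prdm1, Prdm11, Prdm16 and Smyd3 most.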
